A study of Mus musculus with 2 samples.

Results

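Lysosomal proteases of the cathepsin family and their secreted inhibitor cystatin C were followed in single cells of mouse bowel and of mesenteric adipose tissue, the fat along the bowel. The members were named by gene symbol and not by any measured value: Ctsa, Ctsb, Ctsc, Ctsd, Ctsh, Ctsk, Ctsl, Ctss, Ctsz and Cst3, which are 10 of the 32285 genes in the matrices, and all 10 were detected. The study sequenced 1 library from mice that had a colotomy, an incision of the colon, and 1 library from sham-operated mice. Both groups were of the B6/C57 genotype, aged 8 to 12 weeks and collected on postoperative day 14, and no transgene or drug is named for either. Each library mixes bowel and fat cells of an unstated number of mice. With 1 library per group no difference between the operations can be tested against animals, and no p-value is given.

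Cathepsins cut proteins in the acid lumen of lysosomes, to which most of them are carried as inactive precursors by mannose 6-phosphate receptors, and some of them also act outside the cell. Most are papain-like cysteine proteases, whereas cathepsin D is an aspartic protease and cathepsin A is a serine carboxypeptidase. Cystatin C blocks papain-like cathepsins outside the cell. In tissue repair these enzymes are known for digesting engulfed matter in macrophages and for turning over collagen and elastin in the matrix.

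The colotomy library held 9246 cells after filtering, with 8728608 UMIs (unique molecular identifiers, 1 per captured RNA molecule) and a median of 778.5 UMIs per cell. The sham library held 42143 cells with 70442705 UMIs and a median of 1328. In the kept cells 108 barcodes occurred in both libraries. Levels are given as CPM, the UMIs of a gene per 1000000 UMIs of all genes in the summed cells, with 95% exact Poisson intervals in parentheses. Ratios have 95% exact binomial intervals. Both kinds cover counting error only and not the spread between animals. In such sums, more cells with a gene and more RNA per cell cannot be told apart. Cells were clustered with the 10 members left out, and clusters were called macrophage-like, fibroblast-like and so on from marker genes. Macrophage-like cells (1112 in the colotomy and 3222 in the sham library) held 8 of 10 macrophage markers in cluster 10, led by Pf4, Folr2 and Ccl8, and 5 of 10 in cluster 20, led by Lyz1, Ear2 and Retnla. Fibroblast-like cells (3751 and 5350) held all 10 fibroblast markers in each of clusters 1, 5 and 8.

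Macrophage-like cells carried a large part of the cathepsin RNA. They made up 12.03% of the kept colotomy cells and 10.4% of the UMIs, but held 61.3% of the Ctss, 50.9% of the Ctsd, 42.2% of the Ctsb and 41.97% of the Ctsc UMIs of that library. In the sham library they held 9.39% of all UMIs, 35.7% of the Ctsb, 35.3% of the Ctsd and 26.996% of the Ctss UMIs. B cell-like cells, with 25.7% of all UMIs there, held 28.3% of the Ctss UMIs. Fibroblast-like cells were the main source of Ctsk, the collagen-degrading protease known from osteoclasts, with 78.5% of its UMIs in the colotomy and 77.4% in the sham library. They were also the main source of Ctsl, an endopeptidase that is both lysosomal and secreted, with 57.02% and 54.03%. Fibroblast-like cells made up 40.6% of the kept cells in the colotomy and 12.7% in the sham library.

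**Figure D1:**
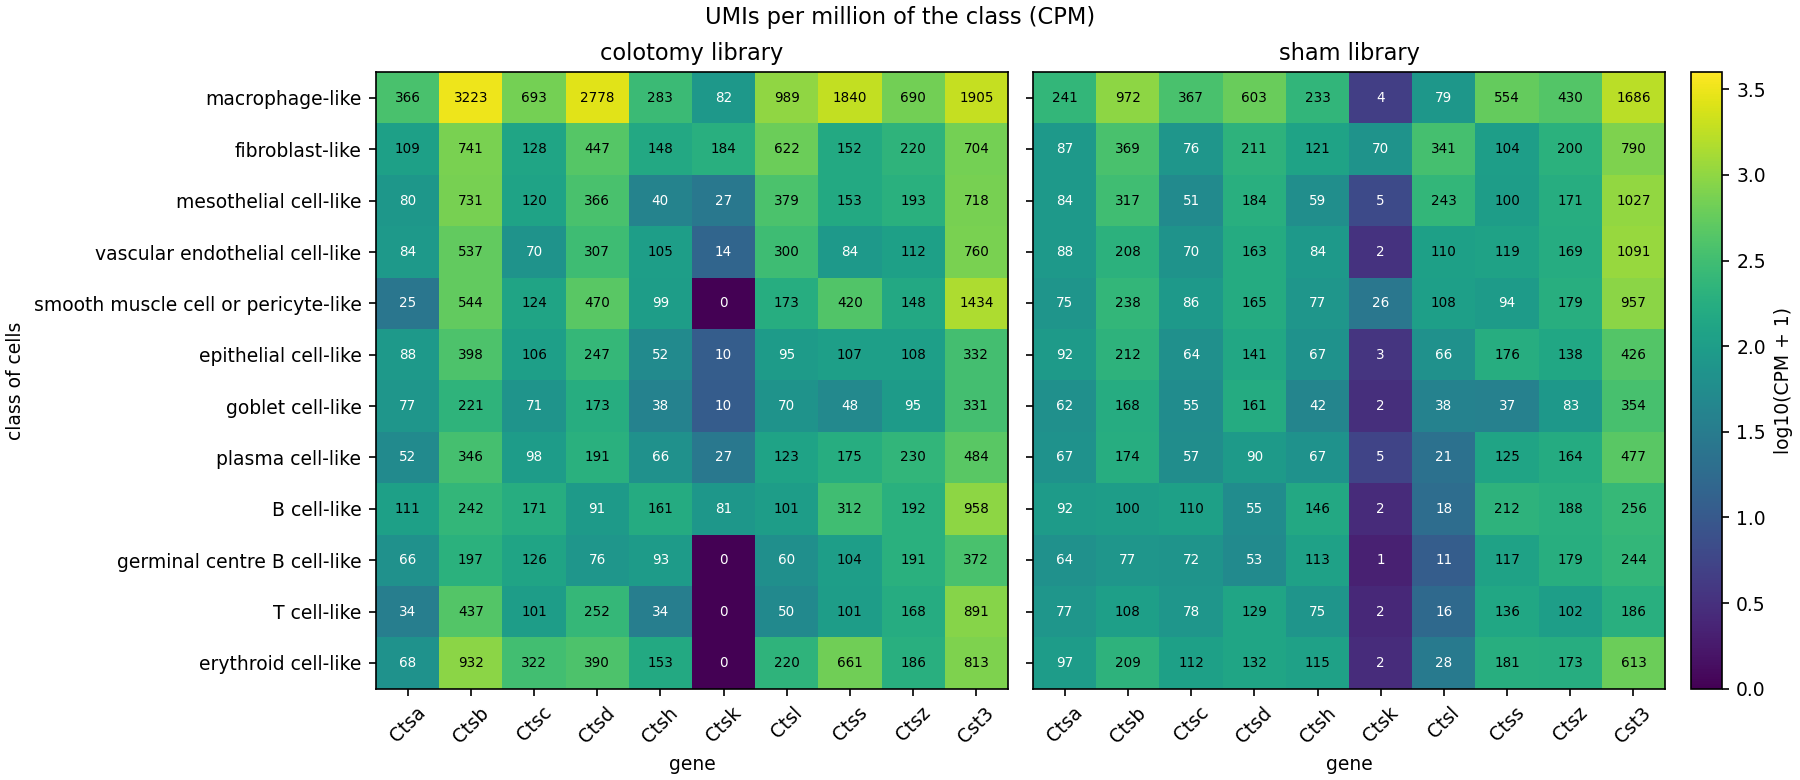
Level of each member (columns) in each class of cells (rows) in the colotomy and sham libraries, as CPM printed in the cells and coloured by log10(CPM + 1). Among the named classes macrophage-like cells have the highest Ctsd, 2778 and 603 CPM, and fibroblast-like cells the highest Ctsk, 184 and 70.2 CPM.

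Among the cysteine endopeptidases, Ctsb, which also trims dipeptides, stood at 3223 CPM (3107 to 3343) in macrophage-like cells of the colotomy library and 972 CPM (949 to 996) in those of the sham library, and at 741 CPM (711 to 772) and 369 CPM (357 to 382) in fibroblast-like cells. Ctss, which cleaves the invariant chain of class II molecules in antigen-presenting cells, stood at 1840.03 CPM (1753 to 1931) in macrophage-like cells of the colotomy library and 554 CPM (536 to 572) in those of the sham library, and at 152 CPM (139 to 166) and 104 CPM (97.4 to 111) in fibroblast-like cells. For both genes the colotomy value lay above the sham value in each whole class, with intervals that did not overlap. For Ctss this did not hold in fibroblast-like cells without a UMI of C1qa, C1qb, C1qc or Csf1r, as given below. In a finer cluster left unnamed for its macrophage markers, 195 colotomy fibroblast-like cells held 171 of the 471 Ctss UMIs. In the sham library 256 such cells held 183 of 969. Ctsl stood at 989 CPM (925 to 1056) in macrophage-like cells of the colotomy library and 79.3 CPM (72.7 to 86.4) in those of the sham library, and at 622 CPM (594 to 649.96) and 341 CPM (329 to 353) in fibroblast-like cells. Over whole classes its fibroblast-like level was the higher one in the sham library and its macrophage-like level in the colotomy library, an order that did not hold for every group of macrophage-like cells.

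Ctsd, the aspartic protease, stood at 2778 CPM (2670.2 to 2889) in macrophage-like cells of the colotomy library and 603 CPM (585 to 622) in those of the sham library, and at 447 CPM (423 to 471) and 211 CPM (202 to 221) in fibroblast-like cells. In macrophage-like cells the exopeptidases were closer together between the libraries than Ctsb, Ctsd, Ctsk, Ctsl and Ctss were. Ctsc, the dipeptidyl peptidase that activates serine proteases of immune-cell granules, stood at 693 CPM (640.1 to 749.8) in macrophage-like cells of the colotomy library and 367 CPM (352 to 382) in those of the sham library, and at 128 CPM (116 to 141) and 75.95 CPM (70.5 to 81.8) in fibroblast-like cells. Ctsz, a carboxypeptidase, stood at 690.01 CPM (637 to 746) in macrophage-like cells of the colotomy library and 429.8 CPM (414 to 446) in those of the sham library, and at 219.8 CPM (204 to 237) and 199.6 CPM (191 to 209) in fibroblast-like cells. For both, macrophage-like cells had the higher level in each library. Ctsh, an aminopeptidase, stood at 283 CPM (249.5 to 319.97) in macrophage-like cells of the colotomy library and 233 CPM (221 to 245) in those of the sham library, and at 148 CPM (135 to 162) and 121 CPM (114 to 128) in fibroblast-like cells. Ctsa, which also shields neuraminidase and beta-galactosidase in the lysosome, stood at 366 CPM (328 to 408) in macrophage-like cells of the colotomy library and 241 CPM (229.7 to 254) in those of the sham library, and at 109 CPM (98.1 to 122) and 86.7 CPM (80.8 to 92.8) in fibroblast-like cells.

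The inhibitor Cst3 was found in both classes. It stood at 1905 CPM (1816 to 1997) in macrophage-like cells of the colotomy library and 1686 CPM (1655 to 1718) in those of the sham library, and at 704 CPM (674 to 734) and 789.7 CPM (772 to 808) in fibroblast-like cells. Its highest level among the classes and clusters measured lay outside both classes, in cluster 11, a cluster left unnamed because it held markers of both conventional and plasmacytoid dendritic cells (Xcr1, Clec9a and Siglech were among its leading genes). There Cst3 reached 11157 CPM in the colotomy and 9326 CPM in the sham library, 5.86-fold (5.35 to 6.403) and 5.53-fold (5.395 to 5.67) the macrophage-like level. In the same cluster Ctsd was 24.2-fold lower than in macrophage-like cells in the colotomy and 10.6-fold lower in the sham library. A dendritic cell-like cluster with Ccl22 and Fscn1 held Cst3 at 5688 CPM in 15 colotomy cells and 3543 CPM in 686 sham cells. The unnamed clusters together held 26.1% of the Cst3 UMIs in the sham library and 12.2% in the colotomy library.

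The following short stretches of DNA are shown because they hold letters of transcription factor motifs near the starts of members that were at least 1.5-fold higher in macrophage-like cells of the colotomy library. Windows from 250 bases before to 50 after each start, from RefSeq on GRCm38.p6, were used for 8 members, not Ctsb or Ctsh. CACGTG, an E-box read by the lysosomal gene regulators TFEB and MITF, was searched on both strands and occurs in 7.15% of all 32851 windows; Ctsd and Ctsl hold it. GAGGAAGT, a motif of the myeloid factor PU.1, occurs in 3.202% of windows, and Ctsc and Ctss hold it. TGANTCA, the AP-1 motif, occurs in 7.81% of windows and in 0 of the 8 members. The motif is in capitals, and for PU.1 it reads on the opposite strand:
Ctsd chr7:142388048-142388077, minus strand: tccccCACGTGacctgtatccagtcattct
Ctsd chr7:142387908-142387937, minus strand: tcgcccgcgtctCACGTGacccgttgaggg
Ctsl chr13:64370739-64370768, minus strand: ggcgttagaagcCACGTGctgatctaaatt
Ctsc chr7:88277923-88277952, plus strand: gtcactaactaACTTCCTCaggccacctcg
Ctss chr3:95526773-95526802, plus strand: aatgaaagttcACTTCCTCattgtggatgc

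By GENCODE vM21 on GRCm38, Ctsd is annotated at chr7:142375911-142388038 and Ctsl at chr13:64359337-64370890, both on the minus strand, so the second Ctsd stretch and the Ctsl stretch lie inside the annotated genes and the first Ctsd stretch lies upstream. Ctsc is at chr7:88278085-88310888 on the plus strand and its stretch lies upstream. Ctss, at chr3:95526786-95556403, has Ctsk as its neighbour at chr3:95499256-95509362 on the same plus strand, and the Ctss stretch spans its annotated start. These neighbours differed in where they were found: 61.3% of the Ctss UMIs of the colotomy library lay in macrophage-like cells, and 10.2% of the Ctsk UMIs. The letters are a description and show no binding.

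Macrophage-like cells exceeded fibroblast-like cells for 8 members in both libraries, all but Ctsk and Ctsl, by at least 1.91-fold in each. The share of all genes at least 1.5-fold higher in macrophage-like cells was 20.8% in the colotomy and 16.1% in the sham library. The widest gap among these 8 was that of Ctss, at 12.1-fold (10.9 to 13.4) in the colotomy and 5.34-fold (4.97 to 5.73) in the sham library. Ctsl differed in direction between the libraries over whole classes. In the sham library it was 4.29-fold higher in fibroblast-like cells, a log2 ratio of -2.10 (-2.24 to -1.97), and in the colotomy library it was 1.59-fold higher in macrophage-like cells, a log2 ratio of 0.67 (0.55 to 0.78). Taking only macrophage-like cells without a collagen UMI (Col1a1, Col1a2, Col3a1) and fibroblast-like cells without a UMI of C1qa, C1qb, C1qc or Csf1r gave Ctsl log2 ratios of -2.11 in the sham and 0.81 in the colotomy library. The colotomy direction turned with the choice of macrophage-like cells. Against 622 CPM in fibroblast-like cells, Ctsl was at 88.1 CPM in cluster 20 (log2 -2.82, -3.60 to -2.14) and at 501 CPM in a finer group led by Folr2 and Pf4 (log2 -0.31, -0.58 to -0.05), both below as in the sham library. It was at 290.1 CPM in macrophage-like cells without a Spp1 UMI, and at 1606 CPM in the finer group led by Mmp12, Spp1 and Gpnmb. That finer group also held monocyte markers.

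**Figure D2:**
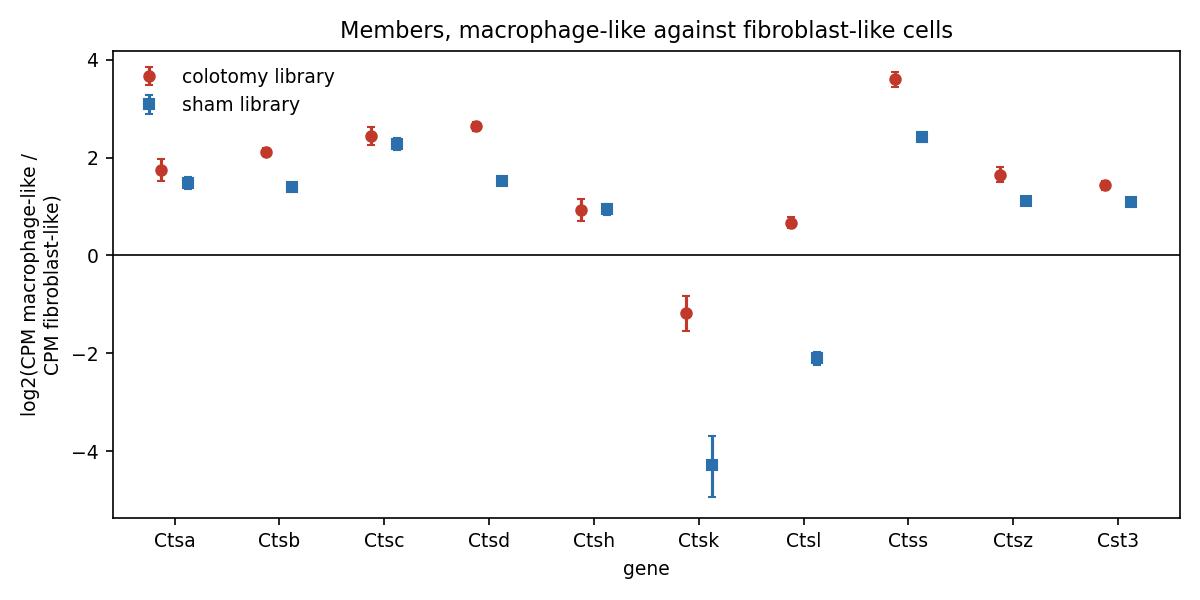
Log2 ratio of CPM in macrophage-like over fibroblast-like cells for each member, by library, with 95% exact intervals for counting error. Ctsk lies below 0 in both libraries at -1.17 (colotomy) and -4.27 (sham), and Ctsl lies at 0.67 and -2.10.

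Over whole classes Ctsk was below the fibroblast-like level in macrophage-like cells of both libraries, by unequal amounts. In the sham library 24 Ctsk UMIs gave 3.63 CPM (2.32 to 5.397) in macrophage-like cells and 655 UMIs gave 70.2 CPM (64.9 to 75.8) in fibroblast-like cells, a log2 ratio of -4.27 (-4.93 to -3.69). In the colotomy library 74 UMIs gave 81.8 CPM (64.3 to 103) and 571 UMIs gave 184 CPM (169 to 200.03), a log2 ratio of -1.17 (-1.54 to -0.82). The share of all genes at least 1.5-fold lower in macrophage-like cells was 31.4% in the colotomy and 27.6% in the sham library. The value for Ctsk in macrophage-like against fibroblast-like cells, colotomy library, depended on which cells were counted as macrophage-like. It was -0.26 (-0.78 to 0.23) with at least 1000 UMIs per cell and -0.33 (-0.71 to 0.02) where the members took part in the clustering. It was -5.34 (-8.39 to -3.48) at the finer Leiden resolution of 2, where the cluster led by Mmp12, Spp1 and Gpnmb had no name and 2 Ctsk UMIs remained in the class.

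Ctsk in macrophage-like cells sat in few cells. In the colotomy library its 74 UMIs came from 30 of 1112 cells, or 2.698% (1.83 to 3.83, exact binomial), and the 10 cells with most Ctsk held 70.3% of them, up to 13 UMIs in 1 cell. In fibroblast-like cells the 571 UMIs came from 510 of 3751 cells, or 13.6% (12.5 to 14.7), 454 of which had 1 Ctsk UMI, and the 10 highest cells held 4.38%. These shares of 10 cells depend on how many cells held Ctsk, 30 against 510, and are not like for like. In the sham library 18 of 3222 macrophage-like cells had a Ctsk UMI, or 0.559%, and 585 of 5350 fibroblast-like cells, or 10.9%. The 10 highest of those 18 cells held 66.7% of the UMIs, though 14 of the 18 had 1 Ctsk UMI. After every cell was thinned to 500 UMIs the shares were 1.799% and 0.155% in macrophage-like cells and 8.58% and 3.68% in fibroblast-like cells, for the colotomy and sham library in turn. Lymphocytes (T cell-like plus B cell-like), in which the gene has no known use, gave 0.873% and 0.0835% at the same depth, and 1.75% and 0.209% without thinning. At that depth the macrophage-like interval of the colotomy library (1.102 to 2.76) lay inside the one of its 229 lymphocytes (0.106 to 3.12), of which 2 had Ctsk. A share above this background was not detectable there, and with so few lymphocytes its absence could not be shown either. The background left out germinal centre B cell-like cells, whose 204 colotomy cells held 0 Ctsk UMIs. Larger classes with no known use of Ctsk were not thinned. In the colotomy library it had 16 UMIs in 1435 epithelial cell-like, 14 in 975 goblet cell-like and 19 in 658 plasma cell-like cells.

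The 30 macrophage-like colotomy cells with Ctsk carried other lysosomal RNA in quantity. Ctsb was found in 30 of them and Ctsd in 29, against 63.8% and 51.8% of the 1082 macrophage-like cells without Ctsk. Spp1, which encodes osteopontin, a secreted phosphoprotein of matrix and macrophages, was found in 22, or 73.3% (54.1 to 87.7), against 20.4% (18.1 to 22.95) of the rest. Atp6v0d2, a proton pump subunit known from osteoclasts, was found in 13, and in 6.19% of the rest. The median depth of the cells with Ctsk was 934 UMIs and that of the rest 691, and the part of depth in these shares was not tested. Collagen Col1a1 was found in 5 of the cells with Ctsk, or 16.7% (5.64 to 34.7), and in 14.1% (12.1 to 16.4) of the rest.

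Among the fibroblast-like clusters cluster 1 had the highest Ctsk in both libraries. Cluster 1, led by Ptn, Timp1 and Col12a1, stood at 209.9 CPM (189.9 to 232) in the colotomy and 152 CPM (118 to 193) in the sham library. Clusters 8 (Pi16, Cd248) and 5 (Inmt, Gdf10) followed at 148 CPM (119.8 to 182) and 138 CPM (109 to 172) in the colotomy library and at 72.2 CPM (63.5 to 81.8) and 62.3 CPM (55.9 to 69.3) in the sham library. Clusters 8 and 5 did not differ beyond their intervals in either library. Their order was not stable: in the finer clustering the Inmt group was at 73.98 CPM (67.05 to 81.4) and the Pi16 group at 55.8 CPM (46.8 to 65.9) in the sham library. Macrophage-like cluster 10 stood at 104 CPM (81.7 to 131) in the colotomy and 3.82 CPM (2.22 to 6.12) in the sham library. Cluster 20 had 0 Ctsk UMIs in the colotomy library, which allows up to 15.5 CPM, and 3.23 CPM (1.2997 to 6.66) in the sham library. Smooth muscle cell or pericyte-like cells gave 25.5 CPM (13.6 to 43.7) in the sham library and 0 UMIs in the colotomy library, which allows up to 74.2 CPM.

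Ctsk was also found at low counts in classes with no known use of it. Plasma cell-like cells gave 26.7 CPM (16.05 to 41.6) in the colotomy and 4.54 CPM (2.54 to 7.49) in the sham library. Epithelial cell-like cells gave 10.4 CPM (5.97 to 16.96) and 2.63 CPM (1.47 to 4.33). In B cell-like cells 8 UMIs gave 80.6 CPM (34.8 to 159) in the colotomy library, a level whose interval overlaps that of macrophage-like cells, and 1.77 CPM (1.21 to 2.495) was found in the sham library. T cell-like cells had 0 Ctsk UMIs in the colotomy library, which allows up to 50.4 CPM. The 4544 colotomy barcodes under 500 UMIs, which were not kept, held Ctsk at 76.4 CPM (64.8 to 89.5); the sham matrix has 0 such barcodes. Free RNA in the macrophage-like UMIs was estimated from a marker's share in the class over its share in all kept cells. It was 15.4% in the colotomy and 6.15% in the sham library by haemoglobin RNA, and 14.1% and 31.9% by immunoglobulin RNA. All kept cells include erythroid-like cells, 0.725% of the colotomy and 4.92% of the sham cells, so these estimates do not rank the libraries. Erythroid markers summed to 210 CPM in macrophage-like cells of the colotomy and 505 CPM in those of the sham library. With the lower estimate of each library subtracted, the log2 ratio of Ctsk in macrophage-like against fibroblast-like cells, colotomy library, was -1.26, and that of Ctsk in macrophage-like against fibroblast-like cells, sham library, was -4.58.

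**Figure D3:**
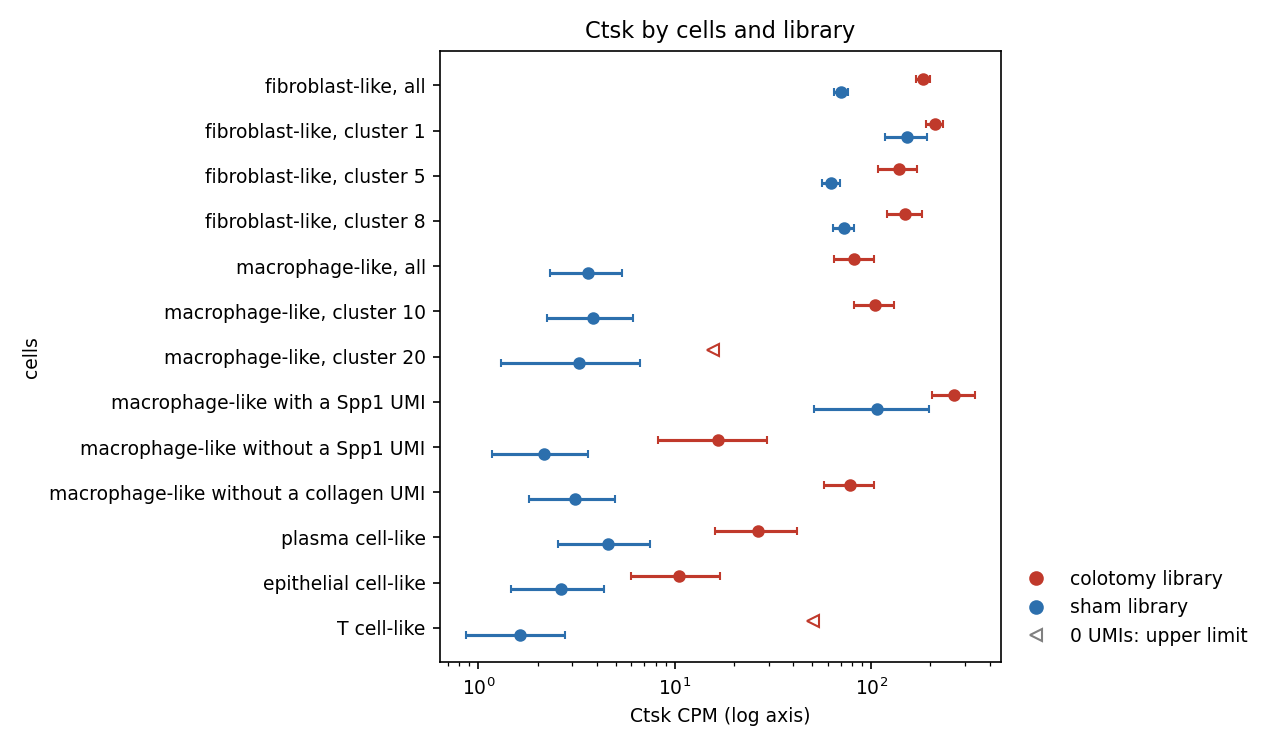
Ctsk CPM on a log axis in fibroblast-like and macrophage-like cells, their clusters and subsets, and other classes, for the colotomy and sham libraries, with 95% exact Poisson intervals; open triangles mark the limit that 0 UMIs allow. Macrophage-like cells with a Spp1 UMI lie at 264 and 106 CPM, and those without at 16.5 and 2.15 CPM.

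In macrophage-like cells 8 of the 10 members were at least 1.5-fold higher in the colotomy than in the sham library, where 18.3% of the 12780 genes tested were, and 0 were as much lower, against 22.4% of all genes. A gene was tested with at least 10 UMIs over both libraries. Of genes with at least 500 UMIs, 12.1% were higher and 17.4% lower. The members had a median log2 ratio of 1.32, and all genes tested one of -0.04. Ctsk had the highest ratio, at 22.6-fold (14.1 to 37.4), followed by Ctsl at 12.5-fold (11.2 to 13.9) and Ctsd at 4.604-fold (4.38 to 4.84). Ctsb was 3.32-fold (3.17 to 3.46) and Ctss 3.32-fold (3.13 to 3.52) higher. Ctsc was 1.89-fold (1.73 to 2.07), Ctsz 1.61-fold (1.47 to 1.75) and Ctsa 1.52-fold (1.34 to 1.71) higher, the last 2 with intervals that reach below 1.5. Ctsh, at 1.22-fold (1.06 to 1.39), and the inhibitor Cst3, at 1.13-fold (1.07 to 1.19), did not reach 1.5-fold. Neither the size nor the first rank of Ctsk held in every alternative: its log2 ratio ran from 0.74 to 5.67 over 14 alternatives and that of Ctsl from 1.65 to 4.31 over 16. The value of 0.74, on 2 and 15 UMIs, came from Leiden resolution 2, where the Mmp12, Spp1 and Gpnmb cells were left out of the class.

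Other RNA moved with the library in these cells. The summed CPM of 10 fibroblast markers, all found in both, was 938 in macrophage-like cells of the colotomy and 245 in those of the sham library, and that of 7 neutrophil markers, all found, was 2276 and 133. In fibroblast-like cells the neutrophil sum was 1868 and 77.3 CPM. The part of neutrophil RNA in the ratios was not tested. In macrophage-like cells without a collagen UMI the same 8 members passed 1.5-fold, with Ctsk at 25.1-fold (14.2 to 46.5) and Ctsl at 12.9-fold (11.4 to 14.6). The count was 8 in cluster 10 alone and 4 in cluster 20 alone, where Ctsb, Ctsc, Ctsl and Ctss passed. With a 2-fold line it was 5, which leaves out Ctsa, Ctsc and Ctsz. The share of all genes was not counted in these subsets or at 2-fold.

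**Figure D4:**
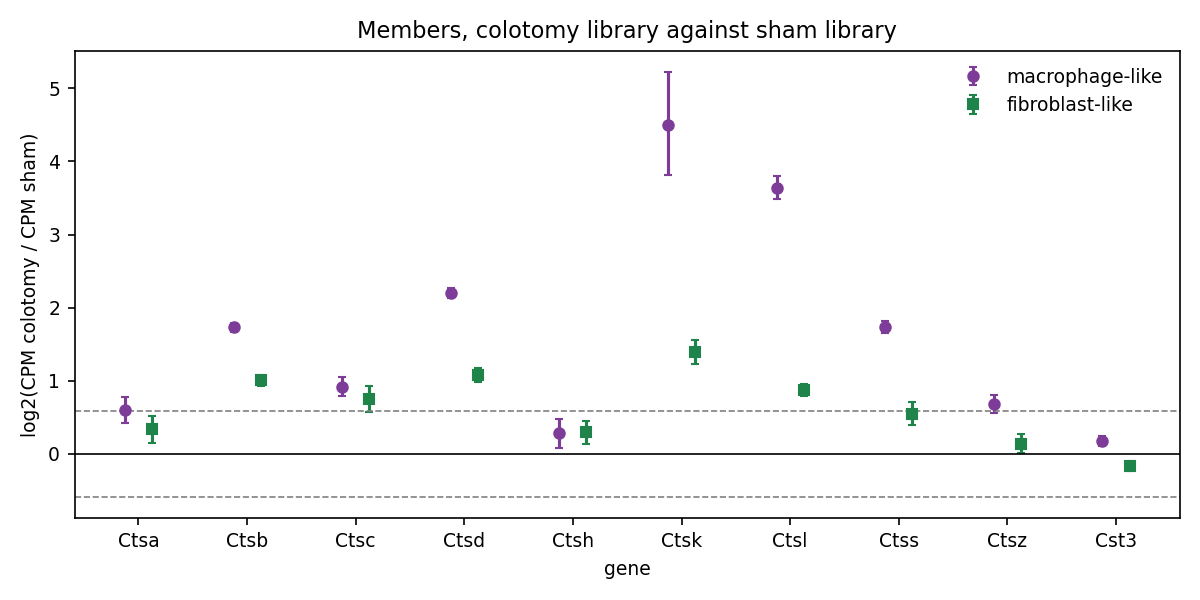
Log2 ratio of CPM in the colotomy over the sham library for each member in macrophage-like and fibroblast-like cells, with 95% exact intervals for counting error; dashed lines mark 1.5-fold. Ctsk lies at 4.50 in macrophage-like and 1.39 in fibroblast-like cells, and Cst3 at 0.18 and -0.17.

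In fibroblast-like cells 5 of the 10 members, Ctsb, Ctsc, Ctsd, Ctsk and Ctsl, were at least 1.5-fold higher in the colotomy library, where 17.6% of the 14590 genes tested were, and 0 were as much lower, against 18.7%. Of genes with at least 500 UMIs, 11.5% were higher and 14.2% lower. The median log2 ratio was 0.65 for the members and -0.02 for all genes. Ctsk had the highest ratio at 2.63-fold (2.34 to 2.94), then Ctsd at 2.11-fold (1.97 to 2.26), Ctsb at 2.01-fold (1.903 to 2.12), Ctsl at 1.82-fold (1.72 to 1.93) and Ctsc at 1.68-fold (1.48 to 1.91). Ctss was 1.46-fold (1.31 to 1.64) higher over all fibroblast-like cells, but at 0.923-fold (0.787 to 1.08) in those without a macrophage UMI. The 5 named members passed 1.5-fold in those cells too. Cst3 was at 0.891-fold (0.849 to 0.935).

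The fibroblast-like clusters differed in their make-up between the libraries: cluster 1 held 2217 of the colotomy and 199 of the sham cells. Within cluster 1 Ctsk was 1.38-fold (1.07 to 1.82) higher in the colotomy library, within cluster 5 2.21-fold (1.703 to 2.83) and within cluster 8 2.06-fold (1.602 to 2.62). Ctsl was 1.43-fold (1.22 to 1.67), 2.04-fold (1.81 to 2.29) and 1.67-fold (1.497 to 1.87) higher in these clusters, and Ctsb 1.85-fold (1.58 to 2.17), 2.398-fold (2.17 to 2.65) and 1.67-fold (1.49 to 1.88). In cluster 1 alone 3 members passed 1.5-fold, Ctsb, Ctsc and Ctsd, and the share of all genes was not counted there.

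Spp1 split the macrophage-like cells widely for some members. A Spp1 UMI was found in 243 of the 1112 colotomy cells and in 37 of the 3222 sham cells. Fibroblast-like cells without Ctsk had a Spp1 UMI in 5.06% (4.33 to 5.87) of the colotomy and 0.2099% (0.101 to 0.386) of the sham cells. The part of free Spp1 RNA in the split was not tested, and the cells counted as having Spp1 may not be alike in the 2 libraries. In the colotomy library cells with Spp1 had Ctsk at 264 CPM (203 to 337) against 16.5 CPM (8.25 to 29.6) in cells without, a 15.9-fold (8.34 to 33.6) difference. Ctsl was at 2934 CPM (2721 to 3159) against 290.1 CPM (251 to 334), and Ctsd at 6981 CPM (6649.8 to 7324) against 1268 CPM (1184 to 1357), or 10.1-fold and 5.503-fold. Ctsb was 3.12-fold and Ctss 2.65-fold higher in the cells with Spp1. Ctsc ran the other way, at 456 CPM (375 to 550.3) with Spp1 and 778 CPM (713 to 849) without. Ctsh (234 and 301 CPM) had overlapping intervals. Set against fibroblast-like cells of the same library, at 184 CPM (169 to 200.03), Ctsk was higher in the macrophage-like cells with Spp1.

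The sham library showed the same direction in its 37 cells with Spp1. Ctsk was at 106 CPM (51.03 to 196) against 2.15 CPM (1.17 to 3.601), Ctsd at 4842 CPM (4407 to 5308) against 542 CPM (525 to 560.5), and Ctsl at 841 CPM (666 to 1048) against 68.4 CPM (62.2 to 75.03). Fibroblast-like Ctsk in the sham library, 70.2 CPM (64.9 to 75.8), lay inside the Ctsk interval of the cells with Spp1. Median depths were 819 and 682 UMIs with and without Spp1 in the colotomy and 2450 and 1764 in the sham library, and their part in the split was not tested. Among cells with Spp1, Ctsd was 1.44-fold (1.299 to 1.603) and Ctsb 1.46-fold (1.31 to 1.64) higher in the colotomy library, Ctsk 2.48-fold (1.26 to 5.42) and Ctsl 3.49-fold (2.76 to 4.46). In cells without Spp1 Ctsl was 4.24-fold (3.56 to 5.03), Ctss 2.44-fold (2.26 to 2.63), Ctsd 2.34-fold (2.17 to 2.52), Ctsb 2.24-fold (2.11 to 2.37) and Ctsc 2.12-fold (1.92 to 2.33) higher. The split by Spp1 was chosen after the clusters had been seen.

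**Figure D5:**
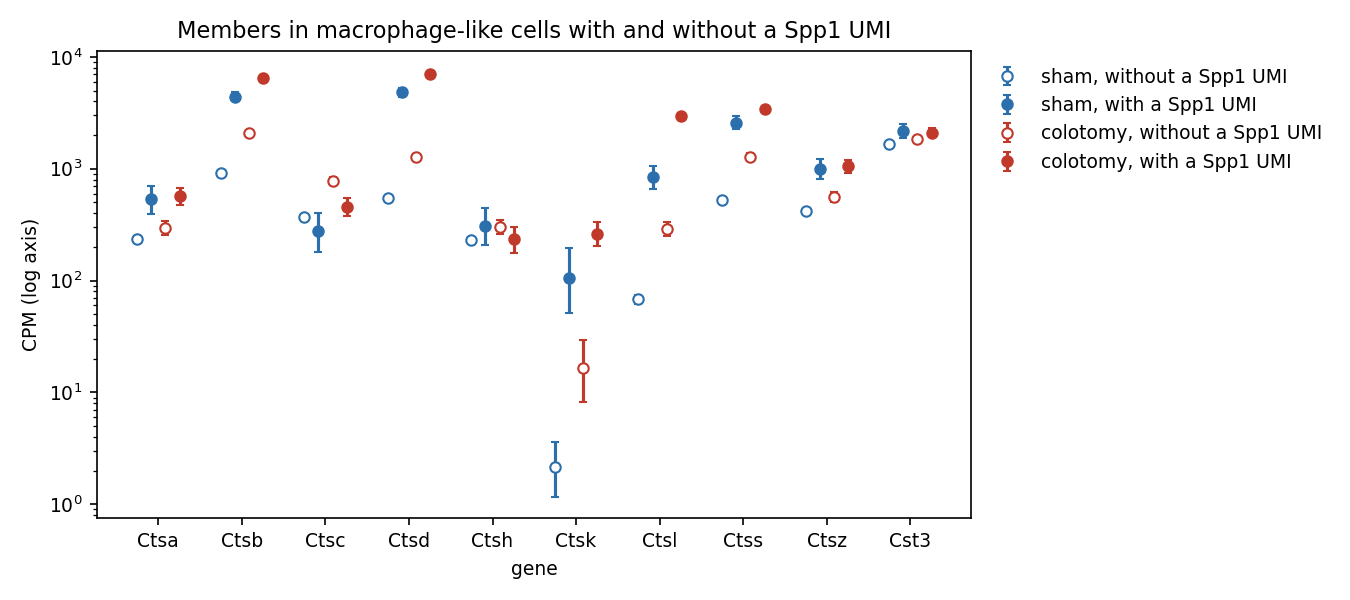
CPM of each member on a log axis in macrophage-like cells with (filled) and without (open) a Spp1 UMI, for the sham and colotomy libraries, with 95% exact Poisson intervals. Filled points lie above open ones for Ctsk, Ctsl, Ctsd, Ctsb and Ctss in both libraries, and below for Ctsc, whose sham values of 277 and 368 CPM have overlapping intervals.

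A finer clustering gave groups that matched the Spp1 split in part. Its group led by Mmp12, Spp1, Gpnmb and Trem2 held 547 colotomy and 637 sham cells, and had Ctsk at 154 CPM (120.4 to 194) in the colotomy and 7.55 CPM (3.45 to 14.3) in the sham library. Its Folr2 and Pf4 group held 341 and 1751 cells, with Ctsk at 7.83 CPM (0.948 to 28.3) on 2 UMIs and 3.29 CPM (1.64 to 5.88). The first group was left unnamed. It held the monocyte markers Ly6c2, Ccr2, Plac8 and Ms4a4c, and the dendritic cell marker Cd209a was among its leading genes. Among sham cells the first group was unlike the 37 with Spp1 in the direction of Ctsb. Its Ctsb was at 712 CPM (664 to 761) against 1411 CPM (1371 to 1452) in the Folr2 and Pf4 group. Its Ctsd went the same way as in the Spp1 split but by less, at 649 CPM (604 to 696) against 541 CPM (517 to 567). In the Folr2 and Pf4 group Ctsl was 4.62-fold (3.75 to 5.67), Ctsd 2.96-fold (2.66 to 3.302), Ctss 2.57-fold (2.27 to 2.89), Ctsb 2.39-fold (2.22 to 2.57) and Ctsc 2.08-fold (1.83 to 2.36) higher in the colotomy library.

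Outside macrophage-like and fibroblast-like cells, 7 classes had at least 100 cells in each library. The median log2 ratio of all genes with at least 10 UMIs in each library lay above 0 there, from 0.12 in goblet cell-like cells to 0.31 in B cell-like cells, against 0.02 in macrophage-like and 0.01 in fibroblast-like cells. Members counted after division by that median are given second, and the shares of all genes are those before division. In plasma cell-like cells 5 members were at least 1.5-fold higher in the colotomy library (24.2% of genes were higher and 19.5% lower), and 5 after division. In mesothelial cell-like cells it was 6 (21.4% higher and 23.7% lower) and 4, with 2 lower after division, Ctsh and Cst3. In B cell-like cells it was 6 (28.1% and 10.7%) and 4, in germinal centre B cell-like cells 4 of 9 tested (23.9% and 14.5%) and 2, and in goblet cell-like cells 2 (15.1% and 13.1%) and 2. In epithelial cell-like cells it was 4 (23.3%) and 3, with Ctss lower (16.0%) and, after division, Ctsh too. In vascular endothelial cell-like cells it was 3 of 9 (22.9%) and 3, with Ctsz lower (21.4%) and, after division, Ctss and Cst3 too.

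Ctsb was at least 1.5-fold higher in 6 of these 7 classes. It was 1.87-fold (1.69 to 2.06) higher in epithelial cell-like, 1.99-fold (1.71 to 2.31) in plasma cell-like, 2.31-fold (1.85 to 2.85) in mesothelial cell-like and 2.58-fold (1.99 to 3.31) in vascular endothelial cell-like cells, and 1.32-fold (1.14 to 1.52) in goblet cell-like cells. Ctsl was at 20.9 CPM in plasma cell-like cells of the sham and at 123 CPM in those of the colotomy library, 5.91-fold (4.26 to 8.21) higher. Cst3 was at 0.697-fold (0.569 to 0.846) in vascular endothelial cell-like and 0.699-fold (0.569 to 0.851) in mesothelial cell-like cells. Most of these classes also held Ctsk UMIs, and the part of RNA from other cells in their ratios was not tested.

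Other genes of the lysosome were read from lists that had been picked with earlier results of these data known. Of 21 genes for lysosomal membrane, sorting and acidification, 16 were at least 1.5-fold higher in macrophage-like cells of the colotomy library and 0 as much lower, beside 18.3% and 22.4% of all genes tested in these cells; their median was 0.96 on the log2 scale. Atp6v0d2 had the largest ratio, from 9.22 to 126 CPM (log2 3.77), followed by Igf2r, a mannose 6-phosphate receptor, from 16.6 to 75.2 CPM (log2 2.18). The regulators Tfe3 (log2 0.27) and Tfeb (log2 -0.47) had the smallest, with intervals that include 0. Of 16 lysosomal hydrolases other than cathepsins 8 were higher and 0 lower; their median was 0.59. Among them Gla, an alpha-galactosidase, had log2 1.49 (0.67 to 2.26), and Galns, a sulfatase, 1.37 (0.76 to 1.95).

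In fibroblast-like cells 7 of the 21 membrane and sorting genes were higher and 1 lower, beside 17.6% and 18.7% of all genes tested there, around a median of 0.46. Atp6v0d2 had log2 2.69 (1.31 to 4.23) on 15 and 7 UMIs and Mitf 1.34 (0.88 to 1.80), and Tfe3 0.05 (-0.21 to 0.30) and Tfeb -0.71 (-1.16 to -0.29) were at the other end. Of the hydrolases 1 of 16 was higher, Gaa, the acid alpha-glucosidase, at 0.95 (0.80 to 1.11), and 0 lower, around a median of 0.22, which is a smaller share higher than over all genes. Hexa was at 0.57, Man2b1 at -0.16 and Gla at -0.38, the last 2 with intervals that include 0.

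Of the other cathepsins and legumain 5 had enough UMIs in macrophage-like cells, 1 higher and 2 lower, and 5 in fibroblast-like cells, 1 higher and 3 lower. With so few genes, 1 of 5 is close to the shares of all genes given above. Lgmn, the asparaginyl endopeptidase that processes cathepsin precursors, was at 267 CPM in the sham and 934 CPM in the colotomy library (log2 1.81, 1.69 to 1.93) in macrophage-like cells, and at 75.95 and 208 CPM in fibroblast-like cells (log2 1.45, 1.30 to 1.61). Ctsw, a protease of cytotoxic lymphocytes, was lower in both, at log2 -3.35 (-6.41 to -1.47) on 2 and 149 UMIs and at -2.07 (-3.06 to -1.23). The summed CPM of 8 T cell markers was lower with it, at 164 in the colotomy and 325 in the sham library in macrophage-like cells and at 58.1 and 236 in fibroblast-like cells, and its part was not tested. Ctso was lower in macrophage-like cells (-0.75, -1.45 to -0.12). Ctsf was at 0.40 and 0.46, and Ctse at -1.73 in fibroblast-like cells on 1 and 10 UMIs.

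Among inhibitors other than Cst3, 1 of 4 was higher and 1 lower in macrophage-like cells, near the 18.3% and 22.4% of all genes. The intracellular stefin Cstb was at 138 CPM in the sham and 483 CPM in the colotomy library there (log2 1.81, 1.64 to 1.98), and at 92.98 and 133 CPM in fibroblast-like cells (0.52, 0.35 to 0.69). Ctla2a, which resembles a cathepsin propeptide, was at 18.1 and 201 CPM in fibroblast-like cells (log2 3.47, 3.23 to 3.73) and had log2 0.53 (-0.50 to 1.43) in macrophage-like cells, where Ctla2b had 0.06. In fibroblast-like cells 4 of 6 inhibitors were higher and 1 lower, beside 17.6% and 18.7% of all genes, with Stfa2l1 at 12 and 3 UMIs. Cst7 was at -2.41 on 1 and 39 UMIs in macrophage-like and -1.47 on 3 and 25 UMIs in fibroblast-like cells, with intervals that include 0.

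Class II presentation genes, which Ctss serves, had 0 of 8 higher and 2 lower in macrophage-like cells, where 18.3% of all genes were higher and 22.4% lower, around a median of -0.40. The count of lower genes is thus near that of all genes. Cd74, the invariant chain, was at -0.65 (-0.69 to -0.61), Ciita, the class II transactivator, at -1.15 (-1.48 to -0.84), H2-Ab1 at -0.34 (-0.40 to -0.28) and Ifi30, a lysosomal thiol reductase, at 0.38 (0.23 to 0.53). In fibroblast-like cells 7 of the 8 were lower, beside 18.7% of all genes, with Cd74 at -1.47, Ciita at -2.41, H2-DMa at -0.73 and Ifi30 at -0.37. The summed CPM of 8 markers of B cells, which are rich in class II RNA, was 654 in macrophage-like cells of the colotomy and 2232 in those of the sham library, and 393 and 1834 in fibroblast-like cells; its part was not tested.

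Genes of bone resorption, the setting in which Ctsk is best known, had 3 of 8 higher and 2 lower in macrophage-like cells, beside 18.3% and 22.4% of all genes. Tnfrsf11a, the RANK receptor, was at log2 1.29 (0.85 to 1.72), Ocstamp at 1.70 on 4 and 9 UMIs, Nfatc1 at -0.77 (-1.25 to -0.33) and Itgb3 at -1.04 (-2.52 to 0.14). In fibroblast-like cells 2 of 6 were higher, beside 17.6% of all genes, Mmp9, a gelatinase, at 2.01 (1.52 to 2.51) and Tnfrsf11a at 1.22 (0.44 to 1.98), while Itgb3 was at -0.06 and Nfatc1 at -0.18. Granule serine proteases that Ctsc activates had 4 of 5 higher and 1 lower in macrophage-like cells on few counts, beside 18.3% and 22.4% of all genes. Mcpt4 was at 9 and 1 UMIs in the colotomy and sham library, Tpsb2 at 12 and 2, Cma1 at 4 and 6 and Gzma at 3 and 33. In fibroblast-like cells 2 of 6 were higher and 4 lower on few counts, beside 17.6% and 18.7% of all genes. Prtn3 was at 21 and 3 UMIs, Gzmb at 6 and 4, Mcpt4 at 0 and 16 and Cma1 at 0 and 29. Calls with a count of 0 read it as 3. Mast cell markers, a list that also holds Mcpt4, Tpsb2 and Cma1, were at 0 in colotomy cells of cluster 10 (0 of 8 found) and summed to 244 CPM in those of cluster 20 (7 of 8 found), so the colotomy UMIs of Mcpt4, Tpsb2 and Cma1 all lay in the 234 cells of cluster 20. The sums in the sham library were 0.899 and 2.77 CPM.

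The members did not share 1 pattern over the 12 classes and 2 libraries. Over these 24 sums Ctsb ran with Ctsd (Pearson r 0.95 on log2(CPM + 10)) and Ctsc with Ctss (0.89), whereas Ctsk ran with Ctss at 0.19 and with Ctsl at 0.68. The points share libraries and differ in depth, so these r values are descriptions. The genes most like each member over the same sums, among 10434 searched, were Grn (0.93) and Psap (0.93) for Ctsb, Plin2 (0.90) and Pla2g7 (0.90) for Ctsd, Lamp2 (0.93) and Vwa5a (0.90) for Ctsl, and Fcgr2b (0.93) and Tyrobp (0.89) for Ctss. They were Mpeg1 (0.93) and Ms4a6c (0.93) for Ctsc, Sgpl1 (0.93) and Aif1 (0.89) for Ctsa, Ap1s2 (0.87) and Capg (0.85) for Ctsh, and Cfp (0.86) and Itgax (0.85) for Ctsz. Those of Ctsk were Lgi4 (0.87) and Mfap2 (0.83), and those of Cst3 were Dhdh (0.86) and Lifr (0.83).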

How the data were processed

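The authors deposited raw counts, UMIs per gene and barcode, for each library, made with Cell Ranger 6.0.0 per the file headers; the submitters' processing notes list mm10 and STAR 2.5.1b. Barcodes with at least 500 gene UMIs, 300 genes and under 20% mitochondrial UMIs were kept. Scrublet called 0 of 9246 and 0 of 42143 cells, so it did not work here and no doublets were removed. Cells of both libraries were clustered together (scanpy 1.11.5; counts per 10000, 2000 variable genes without the members, 30 components, 15 neighbours, Leiden resolution 1, igraph 0.11.9) into 25 clusters. Naming used 25 marker lists. A marker counted if found in at least 10% of a cluster's cells at 2 or more times the CPM of the others. A name needed 3 markers and no rival list of another lineage. Its list also needed at least as many markers among the cluster's 10 leading genes as any other list. This rule was set after seeing the data, and 21 clusters were named. The finer Mmp12, Spp1 and Gpnmb cluster, nearest to monocytes, failed on its leading genes. So did a cluster led by Ear2, Lyz1 and Retnla where the members were clustered, with 661 colotomy and 1523 sham cells. Names rebuilt this way may differ from those of the study.

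UMIs were summed per class and library. Intervals (scipy 1.17.1) are exact at 95%; a count of 0 allows 3 counts. The ratio code was tested on simulated counts. Alternatives covered cell filters, clustering, hashtags, free RNA, scaling and the fold line. Named genes outside the members follow a rule: the 2 genes closest to each member by Pearson r, and the 2 largest and 2 smallest ratios of each list; some of these are not reported here. The members and lists were chosen with earlier results of these data known. The 2 hashtags separated poorly, with mixture components at most 0.975 SDs apart, so tissues were not compared.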

Additional observations from a re-analysis of the deposited data

Results flagged for a closer look

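Some members had colotomy over sham ratios on opposite sides of 0 in different classes, with counting intervals that exclude 0. These differences between classes were not tested. Ctss was at log2 1.73 in macrophage-like and -0.72 in epithelial cell-like cells. Ctsz was at 0.68 in macrophage-like and -0.35 in epithelial cell-like cells. Ctsh was at 0.30 in fibroblast-like and -0.38 in epithelial cell-like cells. Cst3 was at 1.90 in B cell-like cells, on 95 UMIs of the colotomy library, and -0.52 in vascular endothelial cell-like cells. The B cell-like value was 0.96 where the members took part in the clustering, and the median log2 ratio of all genes with at least 10 UMIs in each library was itself 0.31 in B cell-like cells.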

How the results depend on the processing

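No paired analysis was possible because each group is 1 library. The log2 ratio of Ctsk in macrophage-like over fibroblast-like cells was below 0 under all alternatives run, from -5.34 to -0.26 in the colotomy and from -5.39 to -3.79 in the sham library. In the colotomy library it was -0.26 with at least 1000 UMIs and 500 genes, -5.34 at Leiden resolution 2, -0.33 with the members clustered, -0.29 in cells of hashtag 2 only, -1.66 as a mean over cells, under -3.57 in cluster 20 (0 UMIs) and -0.75 against fibroblast-like cluster 5. In the sham library it was -5.39 against fibroblast-like cluster 1. Among the colotomy values just given, intervals included 0 with at least 1000 UMIs, with the members clustered and in cells of hashtag 2 only. Macrophage-like cells with a Spp1 UMI were not among these alternatives, and their Ctsk lay above the fibroblast-like level in the colotomy library. Members at least 1.5-fold higher numbered 4 to 8 in macrophage-like cells: 5 in hashtag 1, 5 in hashtag 2, 5 at 2-fold and 4 in cluster 20. In fibroblast-like cells they numbered 3 to 8: 8 in hashtag 1, 3 at 2-fold and 3 in cluster 1. None was at least 1.5-fold lower in either class. The share of all genes was not counted for these alternatives. Of 328 values of single members in these classes 0 reversed as called values, and 128 moved. In other classes 3 of 572 reversed: Cst3 in germinal centre B cell-like cells, to -0.34 with at least 1000 UMIs and -0.17 with the members clustered, and Ctsd in B cell-like cells, to -0.44 at Leiden resolution 2. Ctsk in macrophage-like cells, colotomy against sham, ran from 0.74 (Leiden resolution 2) to 5.67 (hashtag 2). The cause of these shifts was not tested; the filter of 1000 UMIs left 188 macrophage-like colotomy cells, and at Leiden resolution 2 the class held 2 Ctsk UMIs. Keeping cells with Y-linked RNA and no Xist left the counts at 8 and 5. Single clusters were added after the data had been seen. Free RNA was subtracted only in macrophage-like and fibroblast-like cells. Libraries differ in depth, their free RNA could not be ranked, and with 1 of each, operation, animals and library cannot be told apart.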
